A study of Homo sapiens with 4 samples.

Results

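In BE(2)C cells, 5010 stretches of the autosomes carried no called nucleosome in any of 4 nucleosome maps although nucleosomes were called on both sides of them. BE(2)C is an established human neuroblastoma line with amplified MYCN, and its cells received either a control siRNA or one that targets MYCN. The labels give a dose of 80 nM, and the methods text gives a lower one. After digestion of crosslinked chromatin with micrococcal nuclease (MNase), nucleosome-sized fragments were sequenced as read pairs in 2 libraries per group, both groups being the same amplified line. The labels do not say whether libraries with numbers 1 and 2 came from separate cultures, so p-values measure the spread between these libraries, which may be technical.

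The stretches, called distal gaps here, were chosen from the nucleosome lists themselves. A distal gap was 500 to 3000 bp long, overlapped no called nucleosome of 147 bp in any library, lay over 2 kb from the transcription start site (TSS) of every protein-coding transcript, and had reads in the 2 kb on either side in every library. Of 6276 autosomal stretches of 500 bp or more that were empty in all 4 libraries, 5934 were up to 3000 bp long. Of these, 5604 lay over 2 kb from a TSS, and 5010 also had reads on both sides. Their emptiness and the presence of flanking reads are therefore the rule, not a result. A further 321 stretches of the same length with reads on both sides lay within 2 kb of a TSS.

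A nucleosome is DNA wrapped around a core of histones, and its centre is called the dyad. MNase digests the linker between nucleosomes, so the midpoints of protected fragments mark dyads, and the spread of the midpoints around a dyad (fuzziness, in bp) tells how loosely the position is held across cells. Open regulatory DNA lacks nucleosomes, and nucleosomes beside a fixed barrier such as bound CTCF often sit in a regular, phased array. Stiff A/T tracts disfavour wrapping, and MNase also cuts A/T-rich DNA more readily, so naked A/T-rich sequence yields few protected fragments.

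The deposited lists hold nucleosomes with at least 6 reads, so an empty stretch is one where no position reached 6 reads in any library, not one shown to be free of histones. The lists held between 10527010 and 12178724 nucleosomes and between 147370973 and 242544884 reads, and both replicates 2 were the deeper ones. Taken alone, control replicate 1 had 218363 distal stretches that met the same rule and MYCN knockdown replicate 1 had 190492, against 31639 in control replicate 2 and 26048 in MYCN knockdown replicate 2. The deeper libraries thus set most of the list. MNase maps do not measure the MYCN transcript, so the knockdown itself could not be checked here.

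The sequences below are examples and do not represent the gaps as a whole. None comes from the 25.6% of gaps with under 15% GC in the central 500 bp. A CTCF match was found in 7 of the 5010 gaps. Each run gives 200 bases of the GRCh37 forward strand, 5′ to 3′, at the centre of a gap or of a CTCF motif match, whose bases are in capitals. The first is a gap in an intron of CCSER1, the second one of the longest gaps, in an intron of LTBP1, and the last 3 are gaps with a match to the core of the CTCF motif.
chr4:91313072-91313271: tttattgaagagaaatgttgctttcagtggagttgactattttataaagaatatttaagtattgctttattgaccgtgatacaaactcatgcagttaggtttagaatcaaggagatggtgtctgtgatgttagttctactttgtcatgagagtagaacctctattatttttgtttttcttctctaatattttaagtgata
chr2:33225775-33225974: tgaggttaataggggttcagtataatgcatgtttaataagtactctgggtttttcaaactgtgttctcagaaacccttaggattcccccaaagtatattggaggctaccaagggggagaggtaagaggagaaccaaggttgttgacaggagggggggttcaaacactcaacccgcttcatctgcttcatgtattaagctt
chr11:22897480-22897679: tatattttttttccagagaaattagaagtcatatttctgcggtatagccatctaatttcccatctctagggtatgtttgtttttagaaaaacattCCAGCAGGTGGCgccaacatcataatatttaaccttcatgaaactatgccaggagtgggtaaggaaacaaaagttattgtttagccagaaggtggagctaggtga
chr19:41076643-41076842: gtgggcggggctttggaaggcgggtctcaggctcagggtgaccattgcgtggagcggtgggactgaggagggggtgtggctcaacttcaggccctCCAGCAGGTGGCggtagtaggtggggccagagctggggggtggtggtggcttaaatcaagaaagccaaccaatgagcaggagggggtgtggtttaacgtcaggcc
chr9:139664493-139664692: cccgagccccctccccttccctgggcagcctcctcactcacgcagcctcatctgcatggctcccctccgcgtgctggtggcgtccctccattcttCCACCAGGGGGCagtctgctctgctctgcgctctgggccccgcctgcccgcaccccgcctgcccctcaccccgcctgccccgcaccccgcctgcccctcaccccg
The CCSER1 and LTBP1 gaps show no tandem repeat, with 0% and 0.41% of 12-base words of the central 500 bp occurring more than once, and the last of the CTCF gaps has 81.1% GC.

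Most distal gaps were short. The median length was 645 bp, with quartiles of 552 and 840 bp and a longest gap of 2989 bp. There were 4188 gaps under 1000 bp, 822 of 1000 bp or more and 105 of 2000 bp or more, and together they covered 3906789 bp. There were 547 gaps in the 20 bp above the lower limit of length and 609 stretches in the 20 bp below it, with a median GC content of 25.1% and 25.4%. There were 8 gaps in the 200 bp below the upper limit and 6 stretches in the 200 bp above it. In the 500 bp beyond the TSS limit there were 40 gaps, and in the 500 bp short of it 35 stretches. A further 594 stretches failed only the rule on flanking reads, with a median GC content of 33.4%.

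The median distance to the nearest protein-coding TSS was 91.3 kb, and 2406 gaps were over 100 kb away. By the midpoint of the gap, 3371 (67.3%) lay between protein-coding genes, 1599 (31.9%) in introns and 40 (0.798%) in exons. Of all autosomal positions over 2 kb from a TSS, 55.2% lay between genes, 41.7% in introns and 3.14% in exons. By midpoint, gaps were found in exons at a lower share than the sequence they could come from, and between genes at a higher one.

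Part of the gaps could hardly receive reads. The study kept only read pairs with a mapping quality above 10. When read pairs of nucleosome length were cut from the reference at every 50 bp of each gap and mapped back, 79.5% of 77863 pairs mapped with a quality above 10, against 97.1% of 268442 pairs cut at evenly spaced autosomal positions. In 3124 gaps (62.4%) at least 90% of the pairs mapped back, and these are called mappable here. In 806 gaps fewer than 50% of the pairs did, and in 262 none did. Mappable gaps had a median length of 614 bp and the other 1886 gaps of 708 bp. Of the mappable gaps 36.7% lay in introns and 0.800% in exons.

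The gaps were A/T-rich. The central 500 bp had a median GC content of 24.2%, against 40.2% in all autosomal 500-bp tiles. In 1281 gaps (25.6%) the GC content was under 15%, a level reached by 0.0338% of the tiles. At the other end 11.996% of the gaps had 50% GC or more, and so did 13.4% of tiles, but the gaps reached further: 309 (6.17%) had 65% GC or more, against 0.920% of tiles. In 1842 gaps (36.8%) at least 50% of the 12-base words of the central 500 bp occurred more than once in it, as in tandem repeats, against 0.303% of 268451 tiles sampled every 10 kb. Alternating TA runs of 20 bp or more were found in 128 gaps (2.55%) and in 0.359% of those tiles.

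**Figure D1:**
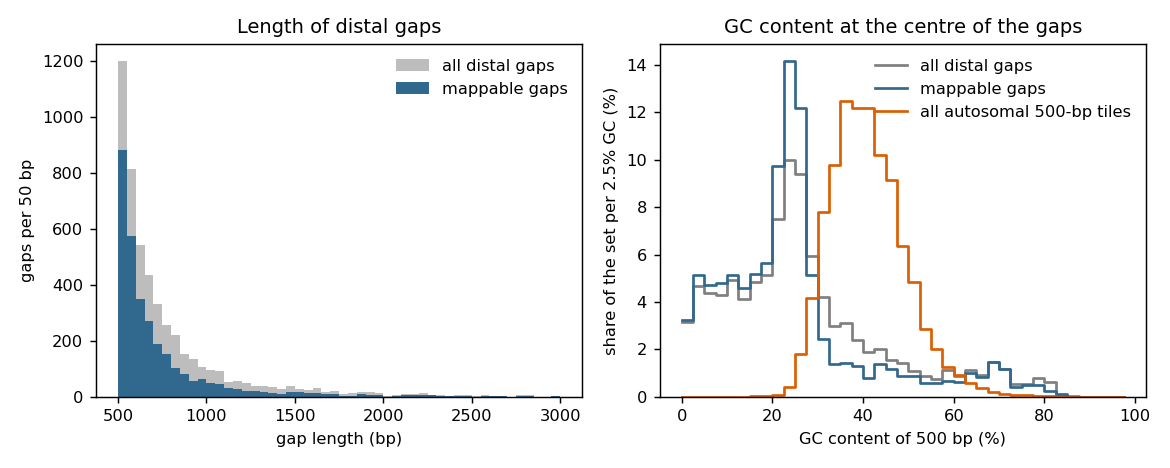
Left, number of distal gaps per 50 bp of length (bp), for all gaps (grey) and mappable gaps (blue). Right, share of each set (%) per 2.5% of GC content in the central 500 bp, for all gaps, mappable gaps and all autosomal 500-bp tiles. The gaps peak near 24% GC with a second broad group under 15% and a small one above 60%, while the tiles have a median of 40.2%.

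By the GC content of the whole gap the mappable gaps fell into 4 classes. There were 811 gaps under 15%, 1678 of 15 to 30%, 344 of 30 to 50% and 291 of 50% or more. At least 50% of the words were repeated in 65.5% of the gaps in the lowest class and in 64.3% of those in the highest class. In the class of 15 to 30% that share was 15.4%, and in the class of 30 to 50% it was 1.45%. This measure finds words that recur within the same 500 bp, as in tandem repeats, and repeats dispersed over the genome were not examined. The class of 15 to 30% lay farthest from a TSS, at a median of 157 kb, and the class of 50% or more nearest, at 30.9 kb.

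The gaps were more frequent where reads were few. The local read level was the median over 10-kb bins within 500 kb on either side, summed over the 4 libraries and set to 1 at the autosomal median. It had a median of 0.749 at the gaps, and 35.03% of the gaps lay at a level under 0.6, against 10.3% of 268589 autosomal bins. The difference came with sequence class. Of the mappable gaps with 15 to 30% GC, 55.5% lay at a level under 0.6, whereas 11.3% of those under 15% GC and 6.53% of those with 50% GC or more did. Gaps of the lowest and highest GC thus lay at levels like those of the genome at large, with medians of 0.976 and 1.13, while those of 15 to 30% GC lay in read-poor segments, with a median of 0.571. The part of read depth in the emptiness of these gaps was not tested, since the lists do not give reads below the minimum of 6.

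The density of gaps differed between chromosomes. Chromosome 18 had 277 mappable gaps, or 3.71 per Mb of known sequence, and chromosome 2 had 543, or 2.28 per Mb. Chromosome 11 followed with 1.86 per Mb and chromosome 14 had the lowest density with 0.510 per Mb. The median read level of chromosome 18 was 0.517 in control replicate 1, 0.580 in control replicate 2, 0.519 in MYCN knockdown replicate 1 and 0.583 in MYCN knockdown replicate 2, so it was low in all 4 libraries. That of chromosome 2 ranged from 0.675 to 0.718 over the libraries. Chromosome 9 had the highest density when all gaps were counted, 6.05 per Mb, but 172 of its 727 gaps were mappable. Over the 22 autosomes the density of mappable gaps and the read level had a Spearman correlation of -0.52 and a Pearson correlation of -0.661, given as a description, since all chromosomes come from the same libraries and share their depth.

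**Figure D2:**
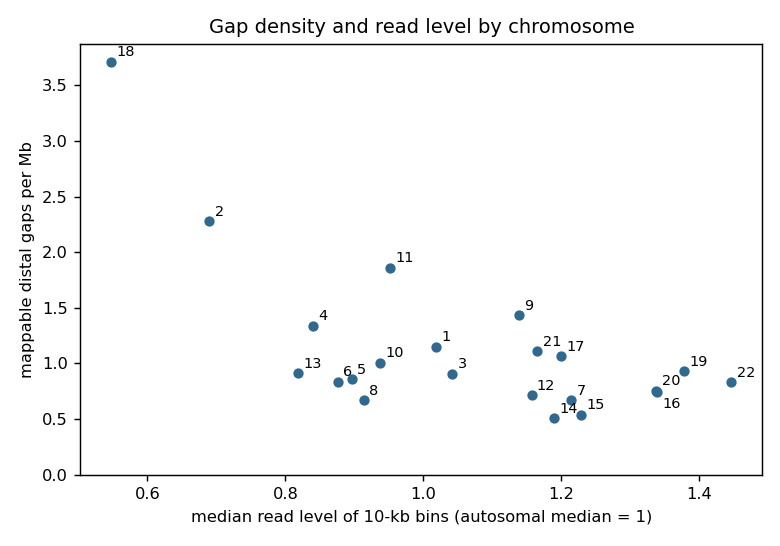
Mappable distal gaps per Mb of known sequence against the median read level of 10-kb bins (autosomal median = 1), 1 point per autosome, labelled by its number. Chromosome 18 lies at the top left with 3.71 gaps per Mb at a level of 0.548, and chromosome 2 follows with 2.28 at 0.690.

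Gaps also came in dense blocks. A block was a run of at least 8 mappable gaps with starts at most 50 kb apart, a rule chosen after the data were seen. There were 6 blocks, which held 122 gaps. The block with most gaps was 384 kb of CCSER1 (chr4:91220995-91605126), a large gene on chromosome 4, with 40 gaps of a median GC content of 28.9% that covered 7.55% of the block. Reads were few in the whole block. Control replicate 1 had 5.93 reads per kb in it and 38.1 in the 500 kb on either side, control replicate 2 had 15.98 and 64.6, MYCN knockdown replicate 1 had 6.33 and 38.7, and MYCN knockdown replicate 2 had 16.4 and 65.1. The level inside was thus 15.6% to 25.2% of that outside in all 4 libraries, with the lower shares in the shallower libraries.

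Another 3 blocks had the same shape. A block of 207 kb in ATRNL1 (chr10:116949915-117156659) held 19 gaps at 16.04% to 23.96% of the level outside. A block of 116 kb at UGT2B17 (chr4:69373841-69490177), which codes for an enzyme that glucuronidates androgens, held 18 gaps at 21.1% to 31.7%. A block of 105 kb at the related gene UGT2B28 (chr4:70126715-70232009) held 13 gaps at 18.5% to 28.6%. In each of the 4 blocks every library was low, control and knockdown alike, and the read level rose again within a few 10-kb bins of the block's ends. The number of gene copies in these blocks was not tested. The remaining 2 blocks lay on chromosome 9 between genes, with 24 gaps, which covered 25.03% of the block, at 80.6% to 86.2% of the level outside (chr9:44743742-44850092) and 8 gaps at 90.4% to 92.8% (chr9:30644263-30780476), so that the reads inside were not lower to the same extent.

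**Figure D3:**
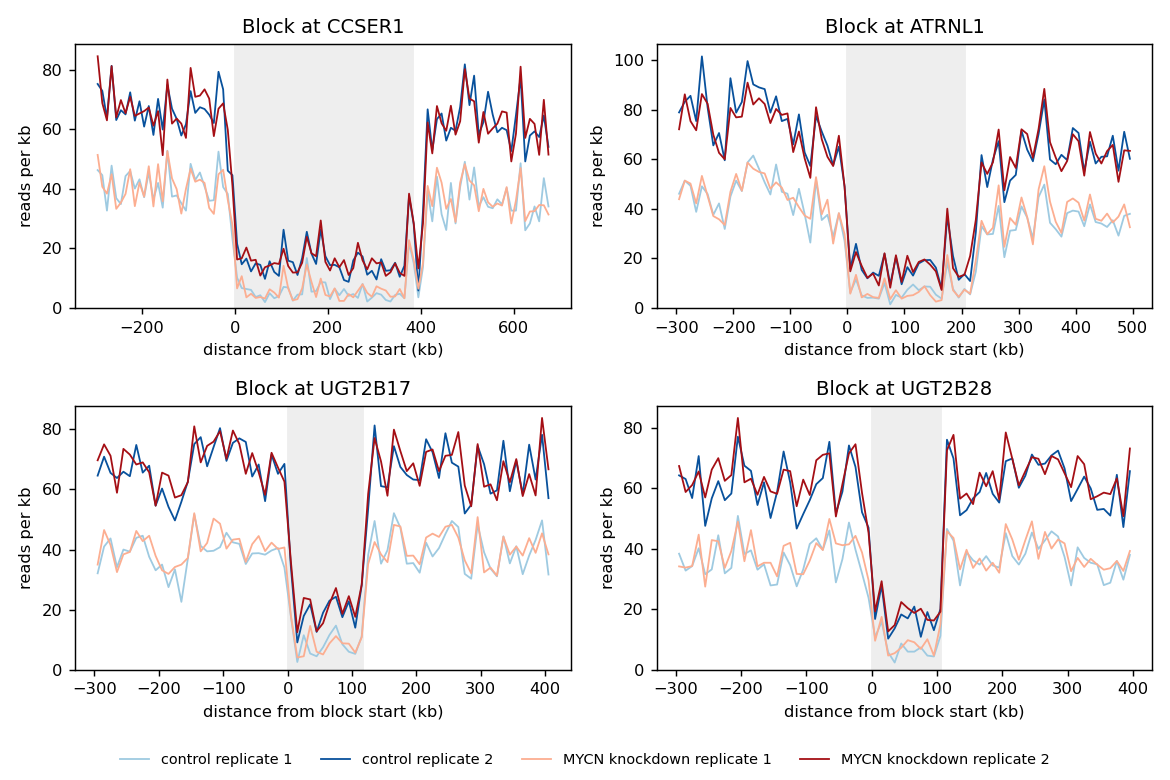
Reads in called nucleosomes per kb, in 10-kb bins, against the distance from the start of the block (kb) for the 4 blocks with few reads, 1 line per library. The block is shaded. All 4 libraries drop at the start of each block and rise at its end, and the deeper replicates 2 lie above replicates 1 in every bin of the same group.

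Outside the blocks the genes with most mappable gaps were long genes, several of them known from neurons. The counts were not scaled by gene length, and the part of length in this ranking was not tested. LRP1B, a lipoprotein receptor relative, held 16 over 1831 kb, DPP10, a subunit that modulates potassium channels, held 12 over 918 kb, and GALNT13, a glycosyltransferase, and LUZP2 held 9 each. DCC, the netrin receptor, held 8, as did LRRC7 and NEGR1. LRP1B, DPP10 and GALNT13 lie on chromosome 2 (read level 0.690) and DCC on chromosome 18 (0.548), whereas LUZP2 lies on chromosome 11 (0.952) and LRRC7 and NEGR1 on chromosome 1 (1.02). The median GC content of the gaps was between 22.9% and 26.3% in each of these genes.

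The longest gaps were of another kind. Among the mappable gaps outside the amplified MYCN segment, 4 of the 5 longest lay in introns and had 44.2% to 48.9% GC and few words repeated within the central 500 bp. The longest, of 2989 bp, lay in an intron of CNOT1, the scaffold of the CCR4-NOT deadenylase (chr16:58647225-58650213). Its first flanking nucleosomes had 13 and 19 reads in control replicate 1, 37 and 31 in control replicate 2, 6 and 8 in MYCN knockdown replicate 1, and 35 and 30 in MYCN knockdown replicate 2. The empty stretch seen in each library alone was 3142, 3276, 2989 and 3216 bp in the same order, so its ends moved by less than 300 bp between libraries of very different depth.

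The gap in LTBP1, which codes for a protein that binds latent TGF-beta (chr2:33224462-33227289, 2828 bp), was 2916, 2885, 2834 and 2856 bp long in the same 4 libraries. The gap in IFT52, a component of the transport along cilia (chr20:42271887-42274683, 2797 bp), was 3014, 2867, 3000 and 2805 bp long. In these 2 genes, too, the ends stayed nearly in place while the read level around them was above the autosomal median, at 1.21 and 1.46. The gap in CSTPP1 (chr11:47060898-47063705, 2808 bp) differed, with 4796 and 4996 bp in replicates 1 against 2808 and 3280 bp in replicates 2, at a read level of 0.689. The remaining one of the 5, between genes on chromosome 22 (chr22:18718227-18721201, 2975 bp), had 6.89% GC with 77.9% of words repeated and was 2976 to 2987 bp long over the libraries.

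That gap also had the highest flanking read count. Its first flanking nucleosomes held 818 and 293 reads in control replicate 1, 946 and 332 in control replicate 2, 791 and 372 in MYCN knockdown replicate 1, and 943 and 427 in MYCN knockdown replicate 2. The mean was 39.8 times the library median. The next 2 by this measure lay on the same chromosome, near DGCR6, at 22.9 and 11.8 times the median (chr22:18878663-18879902 and chr22:18882247-18883761), followed by a gap on chromosome 21 at 11.6 times (chr21:11186888-11187944). These 4 had 6.89% to 12.01% GC, at local read levels of 1.48 to 3.15. Mapping back was computed for pairs with midpoints inside the gaps, not for their flanks. Its part in these flanking counts was not tested. The fifth, on chromosome 1 (chr1:121428097-121428608), had 43.95% GC and 6.03 times the median. Of the first 4, each flanking nucleosome carried at least 83 reads in every library, apart from 9 reads on the left of the gap at chr22:18882247 in MYCN knockdown replicate 1. The gap on chromosome 1 had 31, 24, 32 and 43 reads on its left and 111, 186, 133 and 201 on its right, so most of its reads lay on the right.

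The class of 30 to 50% GC held 103 mappable gaps of 1000 bp or more. Their median length was 1611 bp, the median share of repeated words was 0%, and 33 lay in introns. In each library alone the empty stretch ran past the shared gap by a median of 166 bp in control replicate 1, 64 bp in control replicate 2, 204 bp in MYCN knockdown replicate 1 and 64 bp in MYCN knockdown replicate 2, summed over both ends. In 53 of the 103 it ran on by less than 300 bp in every library. For the 178 gaps of that length with under 15% GC the medians were 126, 62, 98.5 and 49 bp.

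The amplified segment around MYCN held 1 gap. The segment (chr2:16070001-16280000) was taken as the 10-kb bins next to MYCN with a read level over 20, and its median level was 103.02. The gap (chr2:16271658-16273902, 2245 bp) lay 191 kb from the MYCN TSS, had 41.0% GC and mapped back at 95.6% of positions. Its first flanking nucleosomes held 1201 and 838 reads in control replicate 1, 1470 and 1392 in control replicate 2, 1145 and 849 in MYCN knockdown replicate 1, and 1435 and 1354 in MYCN knockdown replicate 2. The empty stretch was 2257, 2247, 2255 and 2250 bp long in the same order. With over 800 reads at each side, no position inside reached 6 reads in any library.

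Motifs were counted in the central 500 bp, on both strands, beside the share of all autosomal 500-bp tiles that hold them. The core of the CTCF motif, CTCF being the main architectural factor of chromatin loops, was found in 7 gaps (0.140%) and in 0.188% of tiles. Among the mappable gaps of 30% GC or over it was found in 4 of 635 (0.630%), a higher share than in the tiles, which were of any GC content. Over the same 150 bp at the centre, 573 (0.328%) of 174549 distal gaps of 150 to under 300 bp held it, 17 (0.0856%) of 19855 gaps of 300 to under 500 bp, and 4 (0.0798%) of the gaps of 500 to 3000 bp. The match was thus found at a higher share in the shortest empty stretches than in the longer ones.

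The following motifs were found in fewer gaps than tiles. AP-1 sites (TGANTCA) were found in 8.12% of gaps and 15.1% of tiles, the E-box that MYC proteins prefer (CACGTG) in 2.10% and 4.55%, the E-box of neuronal basic helix-loop-helix factors (CAGCTG) in 4.41% and 16.3%, and the GATA site (AGATAA) in 27.3% and 32.5%. The left part of the element bound by the neuronal repressor REST was found in 3 gaps (0.0599%) and 0.491% of tiles, and runs of 8 A in 15.3% and 26.6%. The gaps and tiles differ in base composition, and its part in these shares was not tested.

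The 5 mappable gaps with a CTCF match were all named. They lay at chr11:22897352-22898060 (709 bp, 15.3 kb from CCDC179), chr7:155961508-155962022 (515 bp, 356 kb from SHH), chr19:41076469-41076971 (503 bp, in an intron of SPTBN4), chr18:72366543-72367166 (624 bp, in an intron of ZNF407) and chr9:139664538-139665060 (523 bp, 5.57 kb from LCN15). At the gap in SPTBN4, which codes for a spectrin of axons, the flanking nucleosomes had 24 and 10 reads in control replicate 1, 32 and 30 in control replicate 2, 23 and 12 in MYCN knockdown replicate 1, and 28 and 17 in MYCN knockdown replicate 2. The gap was 553, 515, 540 and 505 bp long in the same order. At the ZNF407 gap, by contrast, it was 2137, 1196, 1715 and 624 bp long, at a read level of 0.573, with 6 to 10 reads in every flanking nucleosome. With 7 matches in all, no phasing around CTCF sites inside the gaps was computed.

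Distal gaps were also looked for near transcription factors of the adrenergic core circuit of neuroblastoma. Of 18886 protein-coding genes, 21.1% had a distal gap within 100 kb of a TSS. HAND2, a factor of sympathetic neurons, had a gap of 2424 bp at 44.97 kb (chr4:174403989-174406412, 7.38% GC). GATA2 had a gap of 797 bp at 51.0 kb with 17.4% GC, TFAP2B a gap of 800 bp at 60.8 kb with 14.4% GC, and PHOX2A, a homeodomain factor, a gap of 652 bp at 24.3 kb with 1.84% GC, of which 61.5% of positions mapped back. GATA3, ISL1, TBX2, MYCN, SOX11, LMO1, KLF7 and INSM1 had none, and the nearest gap to GATA3 lay 210.03 kb away.

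The nucleosomes beside the gaps carried few reads. The first flanking nucleosome had a median of 9 reads in control replicate 1, 12 in control replicate 2, 9 in MYCN knockdown replicate 1 and 12 in MYCN knockdown replicate 2. A relative count was also taken, as the mean of both first flanking nucleosomes of a gap over the median nucleosome of the library. Its median over the gaps was 0.769, 0.684, 0.769 and 0.722. The mean difference from 1 was -0.264 ± 0.0412 (SD, n = 4), below 0 in 4 of 4 libraries, and is given with no test since the gaps were chosen from the same read counts. Gaps of 300 to under 500 bp had like values, 0.731, 0.632, 0.731 and 0.667, so a low flanking count was not particular to the long gaps. By class, the library medians were 0.921 to 0.972 for flanks of mappable gaps under 15% GC and 0.579 to 0.692 for those of 15 to 30% GC. Single flanks overlapped between these classes. In control replicate 1 their 10th to 90th percentiles ran from 7 to 21 reads and from 6 to 15 reads. The local read level of the 2 classes also differed, with medians of 0.976 and 0.571, and its part was not tested.

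Upon MYCN knockdown the flanking read count did not move beyond the spread between replicates. The knockdown mean was 0.746 ± 0.0332 and the control mean 0.727 ± 0.0601 of the library median (SD, n = 2 each), a difference of 0.0190 (exact permutation test, two-sided, p = 1). A test of 2 libraries against 2 cannot give a p below 0.333 and so cannot reach 0.05.

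The flanking nucleosomes were less fuzzy than the average nucleosome. Their mean fuzziness was 32.3 bp in control replicate 1, 33.7 bp in control replicate 2, 32.4 bp in MYCN knockdown replicate 1 and 33.7 bp in MYCN knockdown replicate 2. This was -2.37, -2.47, -2.24 and -2.41 bp relative to all autosomal nucleosomes of the same library, a mean of -2.37 ± 0.0957 bp (SD, n = 4). The difference was below 0 in 4 of 4 libraries and is given with no test, since the gaps were chosen from the same lists. Read counts were not matched, and fuzziness differed with them. In control replicate 1 all autosomal nucleosomes had a mean of 34.6 bp and those with at least 12 reads 35.1 bp. Among nucleosomes with at least 12 reads the mean difference was -1.79 bp. Flanks of the gaps of 300 to under 500 bp also differed by -1.88 to -2.21 bp. The gaps of 30 to 50% GC had the least fuzzy flanks of the 4 mappable classes, -3.07 to -3.36 bp, close to the -2.83 to -3.77 bp of the 321 gaps near a TSS, while the other mappable classes lay between -1.37 and -2.57 bp. Between the groups the means were 33.1 ± 0.933 bp upon knockdown and 33.0 ± 1.01 bp in control (SD, n = 2 each), a difference of 0.102 bp (exact permutation test, two-sided, p = 0.667). Replicates 1 and 2 of either group differed by more than the groups did.

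**Figure D4:**
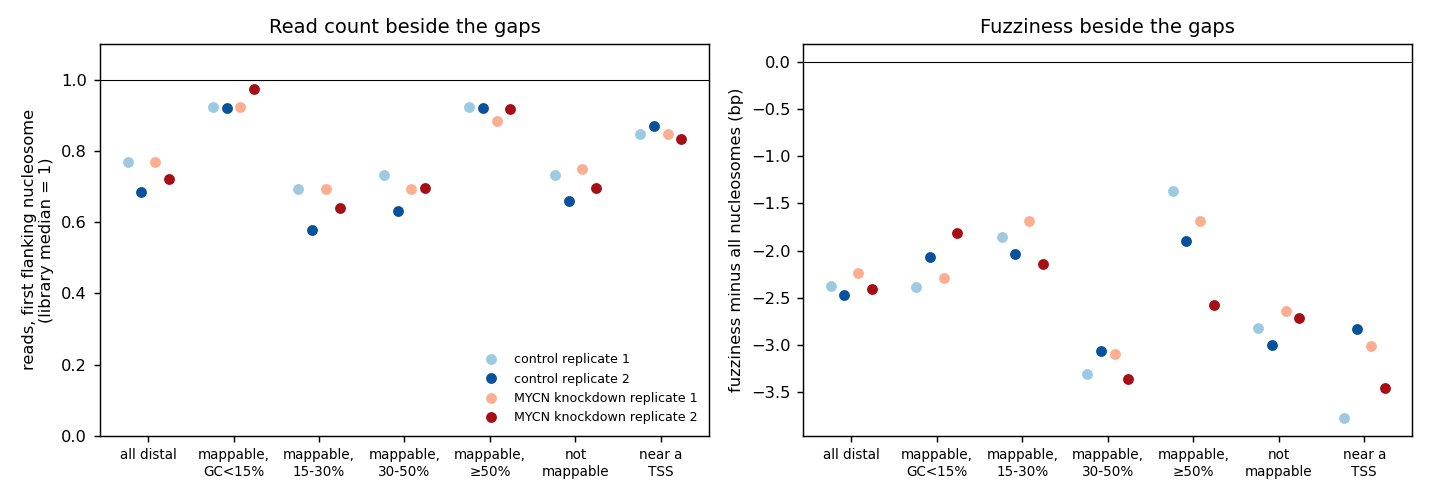
Left, mean read count of both first flanking nucleosomes of a gap, as the median over gaps relative to the library median (line at 1). Right, mean fuzziness of the first flanking nucleosomes minus that of all autosomal nucleosomes of the library (bp, line at 0). Each point is 1 library, for all distal gaps, 4 GC classes of mappable gaps, gaps that were not mappable and gaps within 2 kb of a TSS. The gaps of 30 to 50% GC lie lowest among the distal classes on the right, at -3.07 to -3.36 bp.

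The second called nucleosome stood farther from the first than neighbouring nucleosomes did in general. The median distance from the first to the second flanking dyad was 282 bp in control replicate 1, 238 bp in control replicate 2, 272 bp in MYCN knockdown replicate 1 and 234 bp in MYCN knockdown replicate 2. Neighbouring dyads of all autosomes were 223, 211, 222 and 211 bp apart. The distance beside the gaps was larger in all 4 libraries and most so in the shallower ones. Gaps of 300 to under 500 bp had like values, 283, 229, 277 and 230 bp, so a larger distance was not particular to the long gaps. Where the first flanking nucleosome had at least 12 reads, the distance was 242, 227, 233 and 224 bp. The part of nucleosomes below the minimum of 6 reads was not tested. Upon knockdown the mean was 253 ± 26.9 bp against 260 ± 31.1 bp in control (SD, n = 2 each), a difference of -7 bp (exact permutation test, two-sided, p = 0.667).

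Phasing beside the gaps was weak when measured from the edge shared by all 4 libraries. Called dyads were counted by their distance from the gap edge, and the amplitude was the difference between the highest and the lowest smoothed density from 300 to 700 bp, divided by their sum. In control replicates 1 and 2 the first flanking nucleosome abutted the shared edge on 17.7% and 32.4% of gap sides. In MYCN knockdown replicates 1 and 2 it did so on 18.9% and 33.1%. The part of such offsets in the amplitude was not tested. The second dyad peak stood at 265 bp from the edge in all 4 libraries. The amplitude was 0.147 in control replicate 1, 0.153 in control replicate 2, 0.147 in MYCN knockdown replicate 1 and 0.199 in MYCN knockdown replicate 2, so 1 knockdown library stood above the other 3. The group means were 0.173 ± 0.0368 and 0.150 ± 0.00425 (SD, n = 2 each), a difference of 0.0232 (exact permutation test, two-sided, p = 0.667). Over mappable gaps both knockdown libraries (0.162 and 0.211) were above both controls (0.136 and 0.148), with p = 0.333, the smallest this exact test can give. These values came from 10-bp bins. With 20-bp bins the groups overlapped, at 0.143 and 0.162 in control and 0.145 and 0.228 upon knockdown. Over all gaps with nucleosomes of at least 12 reads they also overlapped, at 0.184 and 0.156 in control and 0.140 and 0.217 upon knockdown. Over gaps of 1000 bp or more the amplitudes were 0.190 and 0.196 in control and 0.188 and 0.197 upon knockdown.

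The amplitude differed from that of shorter gaps by less than the spread between libraries. For gaps of 300 to under 500 bp it was 0.147, 0.175, 0.152 and 0.191 in the same order, a mean difference of -0.00514 ± 0.0127 (SD, n = 4; exact sign permutation test, two-sided, p = 0.625). The gaps of 150 to under 300 bp had 0.210 to 0.251. The mappable gaps of 30 to 50% GC had 0.337, 0.243, 0.318 and 0.297, above those of 15 to 30% GC (0.148 to 0.211) in every library. The 291 mappable gaps of 50% GC or more had 0.299, 0.134, 0.327 and 0.322, higher than the class of 30 to 50% in both knockdown libraries and lower in both control libraries. Both classes, of 344 and 291 gaps against 1678 in the class of 15 to 30% GC, give few dyads per bin. Scatter between such bins raises an amplitude taken from the highest and the lowest density, so sets of unlike size cannot be ranked by it. The 5010 distal gaps and the 19855 gaps of 300 to under 500 bp also differ in number. Their small difference therefore does not show equal phasing. The differences between classes were not tested.

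**Figure D5:**
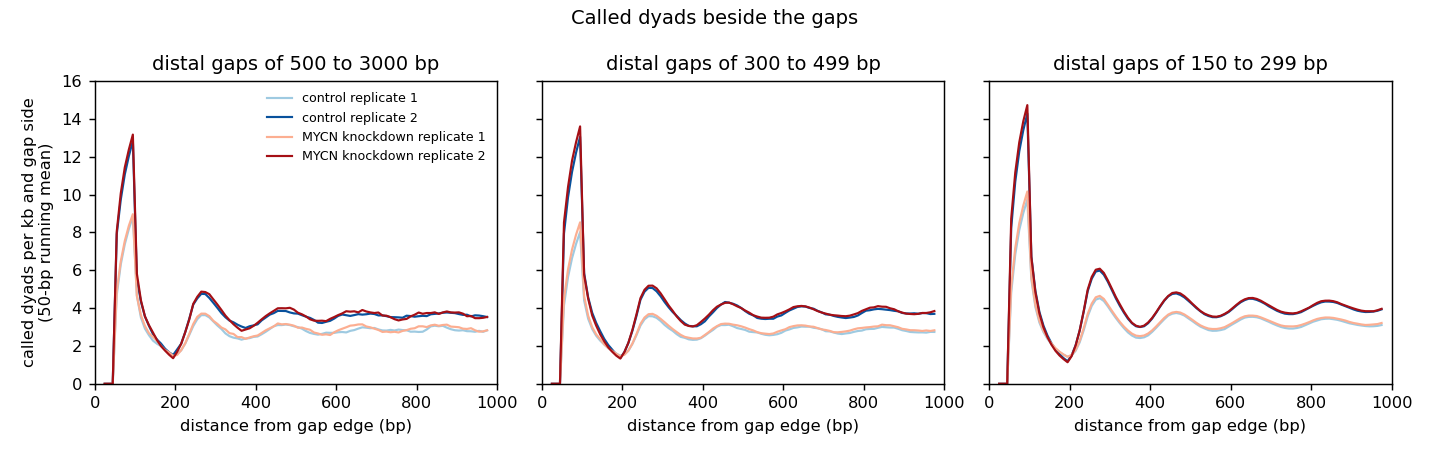
Called dyads per kb and gap side, as a 50-bp running mean, against distance from the gap edge (bp) for distal gaps of 500 to 3000, 300 to under 500 and 150 to under 300 bp, 1 line per library. No dyad lies within the first 73 bp by construction, and the first peak follows from the definition of the edge. The second peak stands near 265 to 275 bp in each panel, and the waves beyond it are higher beside the gaps of 150 to under 300 bp than beside the longer ones.

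The read count around the gaps was compared between the groups over the whole genome. Reads of called nucleosomes were summed in 5-kb bins, and 536874 bins with a mean of at least 10 reads were tested with edgeR's quasi-likelihood test. None of the 4675 bins with a gap was called at an adjusted p under 0.05, and neither was any other bin (0% of all bins). At an unadjusted p under 0.05 there were 104 bins with a gap (2.22%), 56 of them higher upon knockdown, and 18532 of all bins (3.45%). With the replicate number as a block, 0 bins with a gap and 6 of all bins (0.00112%) were called, and 262 bins with a gap (5.60%) and 6.90% of all bins had an unadjusted p under 0.05. DESeq2 called 0 bins, with 39 bins with a gap and 6228 of all bins at an unadjusted p under 0.05. The share of bins with a gap at this unadjusted p was thus below that of all bins in both edgeR fits. This does not mean smaller changes. The 5th to 95th percentiles of the log2 fold change were -0.257 to 0.348 in bins with a gap and -0.199 to 0.220 in all bins. Read counts were not matched between them.

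The median log2 fold change, knockdown against control, was 0.015 in bins with a gap and 0.00049 in all bins. It moved with base composition in both. In bins of up to 35% GC the median was 0.059 with a gap and 0.068 without, and in bins over 45% GC it was -0.067 and -0.059. Within a GC range, bins with and without a gap therefore had nearly the same median.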

How the data were processed

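MNase-seq nucleosome lists of 4 libraries (2 control, 2 MYCN knockdown) were analysed. The authors trimmed reads with Trim Galore 0.4.4, mapped them to hg19 with Bowtie2 2.2.4 (versions from the submitters' processing notes), kept pairs of mapping quality above 10 and called nucleosomes in each library. The deposited read counts are unscaled counts of fragment midpoints per called nucleosome of at least 6 reads. The deposited fuzziness is a score, the SD (bp) of the midpoints around the dyad. The highest read count was 1764 in every library.

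Gaps were found on GRCh37 with GENCODE v44 (lifted) transcripts. Mappability was computed with minimap2 2.31, not the aligner of the study. Bins of 5 kb were tested with edgeR 4.0.16 (TMM, Benjamini-Hochberg adjustment over all bins) and DESeq2 1.42.0. On simulated counts for 60000 bins the edgeR step was tested before use. Single values per library were compared by exact permutation tests. Alternatives changed the length limit, TSS distance, read minimum, mappability, libraries, pairing, window and tool. Gaps were named by length, flanking read count and CTCF match, each the first 5 among mappable gaps outside the amplified segment, by nearness to core factors of neuroblastoma, and by p for called bins. Some items of these lists are not reported here. Members, lists, GC classes and blocks were chosen with earlier results of these data known. Intervals between libraries cover 2 libraries per group only.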

Additional observations from a re-analysis of the deposited data

How the results depend on the processing

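Emptiness depends on depth, the number of libraries and the read minimum, which limits what the number of gaps means. The count of 5010 became 24865 with gaps of at least 300 bp, 822 with at least 1000 bp, 18846 with the lists thinned to equal totals, 69208 with nucleosomes of at least 12 reads and 3124 with mappable gaps. Leaving out 1 library gave 5817 to 11712 gaps, with 10011 without control replicate 2 and 11712 without MYCN knockdown replicate 2. A TSS distance of 5 kb (4797) or the TSS of every gene (4518) changed it little. The share in introns was 36.7% over mappable gaps, 49.6% with genes of every type and 28.8% over gaps of at least 1000 bp, that in exons 1.62% with genes of every type and 0.122% over gaps of at least 1000 bp, and that between genes 62.5%, 48.7% and 71.05% over the same 3 settings. The share of pairs that mapped back was 80.4% with single reads and 83.2% with a mapping quality over 0. Against all nucleosomes, flanking fuzziness differed by -2.12 bp over mappable gaps and -1.79 bp with at least 12 reads, and the read count by -0.103 with at least 12 reads, while leaving out 1 library gave -2.42 to -2.34 bp and -0.275 to -0.246. The amplitude against shorter gaps was -0.0245 with at least 12 reads and -0.0094 to 0.00059 without 1 library.

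Each difference between knockdown and control turned direction without at least 1 of the libraries, a setting in which 1 deep or shallow library stands against the mean of both depths. Without 1 library they ran from -0.0235 to 0.0615 for the read count, -0.612 to 0.816 bp for fuzziness, -29 to 15 bp for the distance to the second dyad and -0.00277 to 0.0492 for the amplitude, which was -3e-05 over gaps of at least 1000 bp. In these fits 1 group is a single library. The median log2 fold change of gap bins ran from -0.022 to 0.059 without 1 library.

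Same-numbered libraries deviated together over all bins (correlation 0.330) and over bins with a gap (0.390), but with 2 pairs this does not establish a pairing, and the labels do not say what a number marks. With the replicate number as a block the mean differences were unchanged by construction: 0.0190 for the read count, 0.102 bp for fuzziness, -7 bp for the distance and 0.0232 for the amplitude. Within replicates 1 and 2 the differences were 0 and 0.0380 for the read count, 0.156 and 0.0482 bp for fuzziness, -10 and -4 bp for the distance and 0.00024 and 0.0462 for the amplitude, so both pairs had the same sign for the last 3. The block gave 6 called bins of all (0.00112%) and 0 with a gap, with 262 gap bins (5.60%) and 37056 of all bins (6.90%) at an unadjusted p under 0.05. Without 1 library edgeR called 0 to 1 bins of all, the 1 without MYCN knockdown replicate 1, and 0 bins with a gap. Phasing around CTCF matches inside gaps was not run, as 7 gaps have a match.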
